A study of Homo sapiens with 3 samples.

Results

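Pancreatic ductal adenocarcinoma cells of the established human line MIA PaCa-2 were grown for 14 days in the solvent DMSO, and the knockouts lost or gained over that time were read against the initial population collected at day 0. The cells carried a pooled lentiviral CRISPR library that targets metabolic genes, with about 10 guides per gene and a set of control guides directed at intergenic sequence. The initial population was untreated after puromycin selection, and the DMSO cells were passaged every few days. Both populations came from the same transduced and selected pool, so the library, the virus and the selection are common to them, and every cell scored is of this 1 line. Another population of that pool was kept for 14 days in apilimod, which blocks the lipid kinase PIKfyve, at 200 nM according to the labels, although the study's methods name another concentration for a 14-day arm. DMSO and the initial population are 2 of the 3 libraries. All guides with at least 100 counts in the initial population were used, and genes had to keep at least 6 of them, which left 28042 guides and 2969 of 2978 genes, beside 487 control guides.

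In such a screen a cell whose guide disables a gene needed for growth divides more slowly or dies, and its guide becomes rarer in the pool. A guide that is neutral keeps its share, and one that speeds growth becomes more common. Dividing cells in culture must double their nucleotides, membranes, proteins and cofactors in each cycle, while rich medium supplies glucose, amino acids, vitamins and serum lipids, so the pathways whose loss is felt depend on what the medium provides. When several genes encode the same enzyme, a cell that expresses more than 1 of them can be buffered against the loss of any single copy. The counts are of integrated guides in genomic DNA, so they hold no expression markers by which the cell type could be checked.

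The libraries held 24695476 counts in the initial population and 26276517 in DMSO. The median guide had 651 and 663 counts, and 72 and 263 of 30197 listed guides were at 0. Each value below is a log2 change in DMSO over the initial population, after a pseudocount of 1 and division by the library total, minus the median change of the control guides. A gene's score is the mean over its guides. The SD printed with a score is over those guides and measures how far guides to 1 gene differed, since each population is a single library and no spread between cultures exists. The control guides had an SD of 0.40, and the central 95% of them lay between -0.93 and 0.71.

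A gene was called depleted when its score was -1 or lower, a 2-fold loss, with at least 75% of its guides below the control median. A gene was called enriched at 0.5 or higher with at least 75% of its guides above it. By these rules 188 of 2969 genes, or 6.33%, were depleted and 2 genes, or 0.0674%, were enriched. Each gene's guides were also ranked against the 487 control guides by an exact rank-sum test (two-sided, Benjamini-Hochberg adjusted over the 2969 genes). That test called 560 genes lower (18.9%) and 25 higher (0.842%), and all 188 depleted genes were among the 560. The test compares guides within these 2 libraries and not the conditions. Ranked against all gene-targeting guides in place of the control guides, 207 genes were lower and 46 higher. The median gene lay at -0.17, and 2243 genes had a score below the control median. Fold calls lead the account below, and the guide test is named where it adds to them.

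**Figure D1:**
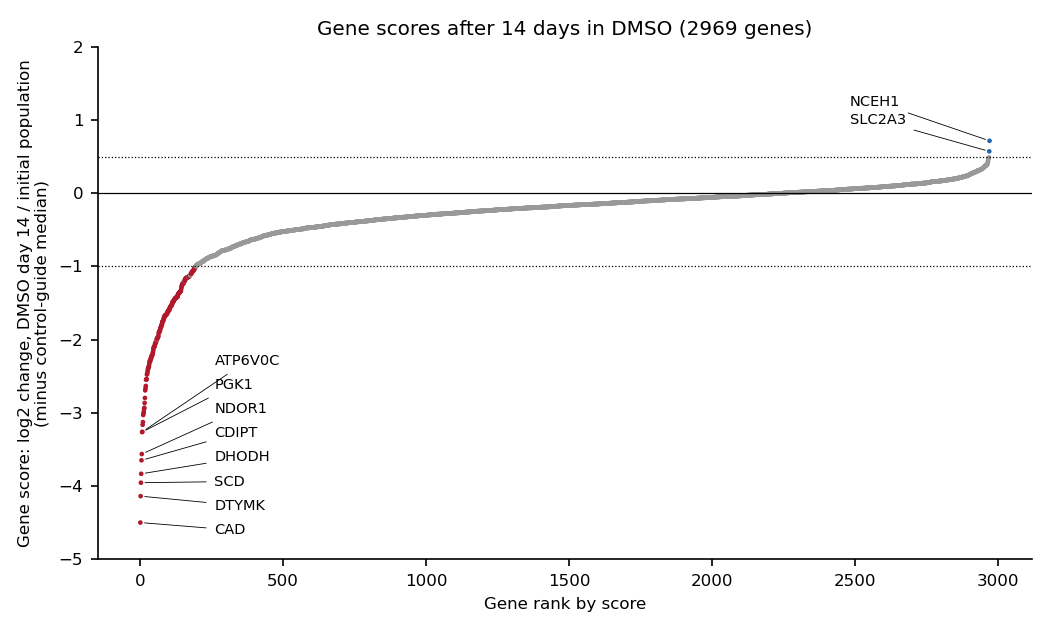
Gene scores of all 2969 genes in rank order. The vertical axis is the log2 change in DMSO over the initial population minus the control-guide median, red points are the 188 depleted genes, blue points the 2 enriched genes, and the dotted lines mark -1 and 0.5. The lower tail reaches -4.50 at CAD, while the upper tail ends at 0.72 at NCEH1.

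The distribution of scores was lopsided. The quartiles of the 2969 scores were -0.40 and -0.0041, 57 genes lay at -2 or lower and 12 at -3 or lower, and the highest score was 0.72. The 24 lowest genes came from nucleotide synthesis (CAD, DTYMK, DHODH, UMPS, RRM1 and PPAT), lipid synthesis and its control (SCD, CDIPT, MVD and SCAP), N-glycan synthesis (DDOST, GMPPB and ALG14), iron-sulfur clusters (NDOR1 and FDXR), the V-ATPase (ATP6V0C and ATP6V1B2) and 7 other genes, PGK1, SDHA, HSD17B10, ABCF1, ATP2A2, PPCDC and MYC. Guides of depleted genes were not alike. Of their 1776 guides, 583 (32.8%) had fallen to -2 or lower, whereas 27.6% stayed within the central 95% of the control guides. Among other genes 1.50% of guides lay at -2 or lower, and of the control guides 0 of 487. For 120 of the 188 depleted genes no guide lay above the median of the control guides. The just-called gene was XYLT2, a xylosyltransferase of proteoglycan synthesis, at -1.002, and the nearest gene outside was NAA35, a subunit of an N-terminal acetyltransferase, at -0.995.

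Nucleotide synthesis held the lowest scores of the screen. CAD, the multifunctional protein that starts pyrimidine synthesis, scored -4.50 ± 2.71 (SD, 10 guides). Its 10 guides had 330, 232, 168, 569, 312, 748, 509, 909, 482 and 2022 counts in the initial population and 0, 0, 0, 20, 32, 84, 66, 140, 189 and 1040 in DMSO, so all of them fell relative to the control guides. Against a floor of 3 counts in the DMSO library, the 3 guides that ended at 0 were at least 117-fold, 82.3-fold and 59.6-fold lower. The median CAD guide changed by -3.42, and the adjusted p of the exact guide test was 7.7e-17. CAD lies on chromosome 2, from 27217369 to 27243943 on GRCh38.

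The next enzymes of the same route followed. DHODH, the mitochondrial enzyme that oxidises dihydroorotate, scored -3.83 ± 2.63 (SD, 9 guides), with 9 of 9 guides lower and 1 of them going from 603 counts to 0. UMPS, which completes UMP, scored -3.13 ± 2.51 (SD, 8 guides). All 3 enzymes that make UMP were thus depleted. Further along, CTPS1, which turns UTP into CTP, scored -1.50 ± 0.74, while its isozyme CTPS2 scored -0.05 ± 0.54. CMPK1, a UMP and CMP kinase, scored -0.51 and did not pass the guide test. The 6 genes of the list had a median of -2.31, the lowest of the 38 lists examined, against -0.17 over all genes.

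De novo purine synthesis was depleted at every step from PRPP to IMP. All 6 enzymes of that stretch were depleted, led by PPAT, the amidotransferase that commits PRPP to the pathway, at -2.69 ± 2.03 (SD, 9 guides). ATIC, which closes the purine ring, scored -2.37 ± 0.64 (SD, 10 guides), and its 10 guides all fell, to between -1.26 and -3.41. PFAS, GART, ADSL and PAICS lay between -2.29 and -1.35. In the branches after IMP, GMPS and GUK1, which make GMP and GDP, scored -2.20 and -2.22, and ADSS, on the AMP side, -1.42. IMPDH2 scored -1.25 ± 0.77 and its isozyme IMPDH1 -0.26 ± 0.41. Of the 16 genes in the list 10 were depleted, beside 6.33% of all genes, with a median of -1.39.

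Salvage enzymes, which recover bases and nucleosides, had a median of -0.15, close to that of all genes. None of the 12 measured was depleted, which lies near the 6.33% of all genes. HPRT1, which rescues hypoxanthine and guanine, scored -0.02 ± 0.67, and ADK, an adenosine kinase, -0.10 ± 0.38. The lowest was APRT, the adenine salvage enzyme, at -0.86 ± 0.46, which was lower by the guide test.

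The supply of DNA precursors was depleted at a few single genes. DTYMK, the thymidylate kinase through which both made and salvaged thymidylate must pass, scored -4.14 ± 2.75 (SD, 8 guides). By the mean over guides this score was the second lowest of the screen. Its guides had 271, 112, 394, 802, 1382, 385, 586 and 672 counts at day 0 and 0, 0, 9, 30, 234, 74, 304 and 473 in DMSO, and all 8 fell relative to the control guides. RRM1, the large subunit of ribonucleotide reductase, scored -2.87 ± 2.24 (SD, 7 guides), while its small subunits RRM2 and RRM2B scored -0.51 ± 1.02 and -0.61 ± 1.21 and were not called by either rule. DUT, which hydrolyses dUTP, was depleted at -1.60 ± 1.54. TYMS, the thymidylate synthase upstream of DTYMK, scored -0.11 ± 0.68 and was not called.

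Of the 20 genes of the folate cycle and serine synthesis 2 were depleted, or 10%, beside 6.33% of all genes. MTHFD1, the cytosolic trifunctional folate enzyme, scored -1.67 ± 1.05, and FPGS, which retains folates inside the cell by adding glutamates, -1.65 ± 1.04. The other 18 of the 20 genes in the list were not depleted, SHMT2 and MTHFD2 of the mitochondrial arm included, at -0.55 and -0.31. PHGDH, PSAT1 and PSPH, which make serine, lay between -0.23 and 0.03. In the pentose phosphate pathway, which makes ribose and NADPH, TKT, PGD and RPE were depleted, at -2.02, -1.68 and -1.01. RPE stayed depleted in 4 of 10 other ways of scoring, the ways that returned all 188 depleted calls included.

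Iron-sulfur cluster assembly, which builds cofactors for respiration, DNA replication and many dehydrogenases, was among the most depleted processes. Of its 12 genes 9 were called, beside 6.33% of all genes, with a median of -2.07. NDOR1, the cytosolic reductase that feeds electrons to cluster assembly, scored -3.56 ± 2.87 (SD, 10 guides). In mitochondria the electron donors FDXR and the ferredoxins FDX1L and FDX1 scored -2.95, -2.46 and -2.10. NFS1, the cysteine desulfurase that provides the sulfur, scored -2.10 ± 0.93. The iron importers SLC25A37 and SLC25A28 scored -0.22 and -0.28 and were not called. ISCA1 scored -1.20 ± 1.83 but only 6 of its 9 guides lay below the control median, so it was not called, while ISCA2 was, at -2.04 ± 1.82.

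Complexes I, III and IV of the respiratory chain and ATP synthase all held depleted genes. Their shares were 30.2%, 50%, 34.8% and 16.7%, beside 6.33% of all genes. Complex III with cytochrome c had the lowest median of these 4 lists, -1.16 over 12 genes with 6 depleted, with CYCS, cytochrome c itself, at -2.44 ± 1.29 and the assembly factor BCS1L at -2.31 ± 1.002. Complex IV had a median of -0.82 with 8 of 23 genes depleted, 4 of them assembly factors that handle copper or heme (COX17, SCO2, COX15 and COX10). Complex I had a median of -0.72 and 13 of 43 genes depleted. Its lowest gene was NDUFAB1, the mitochondrial acyl carrier protein, at -1.67 ± 0.88, which also belongs to mitochondrial fatty acid synthesis. ATP synthase had a median of -0.64 and 3 of 18 genes depleted, and its 3 genes for the same membrane subunit, ATP5G1, ATP5G2 and ATP5G3, lay between -0.03 and 0.07. ATPIF1, a natural inhibitor of the synthase, had the highest score of that list at 0.43 ± 0.55 and did not pass the guide test.

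Succinate dehydrogenase, which is both complex II and a step of the citric acid cycle, was the lowest part of that cycle. SDHA, its catalytic subunit, scored -3.01 ± 2.45 (SD, 10 guides), and SDHB and SDHD scored -1.70 and -1.66, while SDHC scored -0.89 and passed the guide test alone. OGDH, the oxoglutarate dehydrogenase, scored -2.26 ± 1.25, and FH, the fumarase, -1.24 ± 1.36. Among the 7 cytosolic or NADP-linked partners, IDH2, the mitochondrial NADP-linked isocitrate dehydrogenase, scored -0.77 ± 1.02 and was lower by the guide test, and IDH1, MDH1, ACO1, ME1, ME2 and ME3 lay between -0.25 and 0.20 and were not called by either rule. The pyruvate carrier genes MPC1 and MPC2 scored -0.13 and 0.30, and of the pyruvate dehydrogenase complex DLD, a subunit it shares with OGDH, was depleted at -1.18 ± 1.07.

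Lists of cofactor synthesis for mitochondrial enzymes held depleted genes as well, beside 6.33% of all genes. Mitochondrial fatty acid and lipoate synthesis, which supplies the lipoate of those dehydrogenases, had 5 of 9 genes depleted, among them OXSM, MCAT, MECR and the lipoate synthase LIAS, from -1.78 to -1.06. Coenzyme Q synthesis had 3 of 12 depleted (COQ4, COQ7 and COQ5) and 9 lower by the guide test. Heme synthesis had 1 depleted gene of 10, UROD, at -2.37 ± 2.25, which lies near the share of all genes. A total of 8 heme genes were lower by the guide test, beside 18.9% of all genes. Mitochondrial beta-oxidation, which burns fatty acids, was the counterpart with no depleted or lower gene among 20 and a median of -0.08. Its lowest gene, ECHS1, scored -1.11 ± 2.56 with 6 of 9 guides below the control median and was not called.

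**Figure D2:**
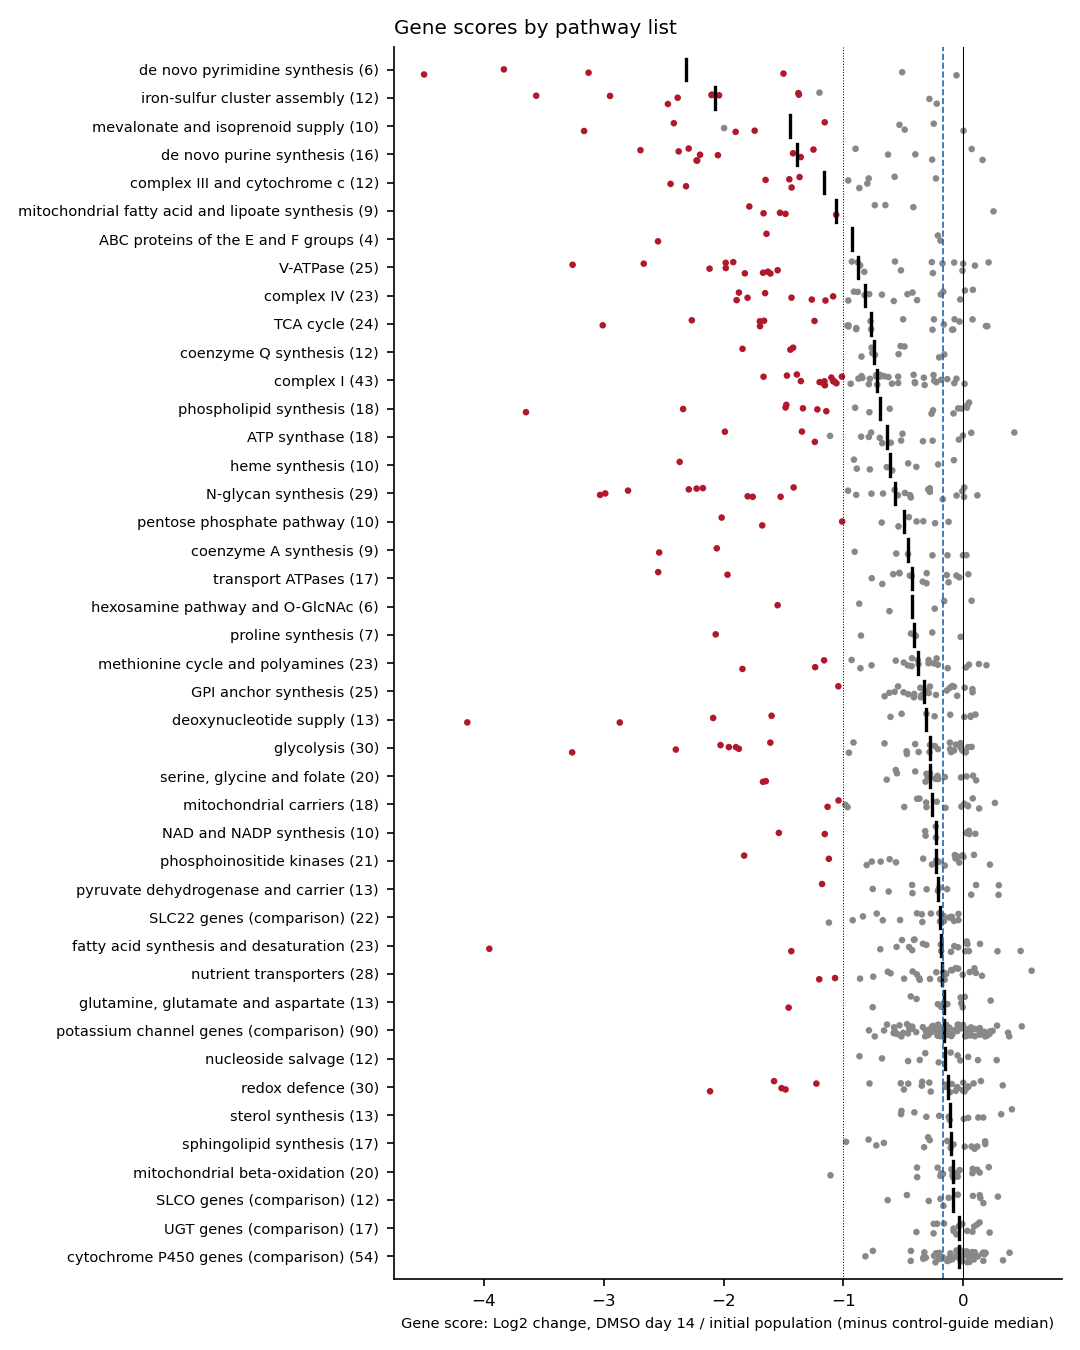
Scores of single genes in 38 pathway lists and in 5 gene families used for comparison, ordered by median. The horizontal axis is the log2 change minus the control-guide median, each point is a gene, red points are depleted genes, black bars are medians, the number of genes is in parentheses, the dashed blue line is the median of all genes (-0.17) and the dotted line is -1. De novo pyrimidine synthesis, iron-sulfur cluster assembly and the mevalonate pathway are at the top, with medians of -2.31, -2.07 and -1.45, the last of which falls in size to -0.74 with summed guide counts.

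Gene families that serve mainly other tissues gave a comparison within the same libraries. The 195 cytochrome P450, potassium channel, UDP-glucuronosyltransferase, SLC22 and SLCO genes had a median of -0.11. None was depleted, beside 6.33% of all genes. By the guide test 18 were lower and 5 higher, beside 18.9% and 0.842% of all genes, so higher calls were not rarer here. The lowest was SLC22A8, an organic anion transporter, at -1.12 ± 2.44, with 7 of 10 guides below the control median. Another comparison family, the 45 ABC genes, was not in this pool. It had 3 depleted genes (6.67%), a median of -0.20 and a lowest score of -2.55. Of the 644 genes in the 38 lists, 145 were depleted, beside 6.33% of all genes, and the other 43 depleted genes lay outside them. A total of 13 lists had a median at least 0.5 below that of all genes. The lists were chosen with earlier results of these data known, so these counts are descriptive and were not tested. The 6.33% of all genes includes the listed genes.

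Glycolysis was split between its enzymes. From aldolase to pyruvate kinase, 1 gene at each step was depleted, and the other isozymes were not. Of these others ALDOC, ENO3 and PGAM2 were lower by the guide test alone, at -0.91, -0.66 and -0.47. ALDOA scored -2.40 ± 2.26, TPI1, which has no isozyme, -1.90 ± 0.94, GAPDH -2.03 ± 1.43, PGAM1 -1.61 ± 1.15, ENO1 -1.87 ± 0.93 and PKM -1.96 ± 1.23. PGK1, the first enzyme of the route to make ATP, was the lowest of them at -3.26 ± 2.86 (SD, 8 guides), while PGK2, its testis counterpart, scored -0.11 ± 0.53. The lowest 3 of the 8 PGK1 guides went from 203, 1195 and 146 counts to 0, 14 and 4, whereas the highest 2 had 428 and 238 counts at day 0 and 341 and 195 in DMSO.

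Above aldolase nothing was depleted. The 5 hexokinase genes lay between -0.40 at HK2 and 0.01 at HKDC1, and GPI, a single gene, scored -0.28 ± 0.39. The 3 phosphofructokinases lay between -0.47 at PFKP, which was lower by the guide test, and -0.07 at PFKL. LDHA, which makes lactate, scored -0.95 ± 1.40 with 6 of 9 guides below the control median, and was not called, while LDHB scored 0.04 ± 0.19. Among glucose transporters SLC2A1 scored -0.37 ± 0.62, and SLC2A3, a high-affinity glucose transporter, was 1 of the 2 enriched genes, at 0.57 ± 0.40 (SD, 10 guides), although by summed guide counts it scored 0.45 and lost the call. The lactate exporters SLC16A3 and SLC16A1 scored -0.63 and 0.16, of which SLC16A3 was lower by the guide test.

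Isozymes and paralogs of other pathways showed a like division. The 59 groups of isozymes or paralogs, those of glycolysis included, held 145 genes. They were grouped after the scores had been seen, so they are given without a test. Some pairs, such as SREBF1 and SREBF2, are paralogs and not isozymes. Of the groups, 28 had exactly 1 depleted member, 27 had none and 4 had 2, while 6.33% of all genes were depleted. The range within the group was 1 or more in 29 groups. The widest was between SCD, the main human stearoyl-CoA desaturase, and SCD5, its other form, at -3.96 and 0.02. ATP2A2, the housekeeping form of the reticulum calcium pump, scored -2.55 ± 1.65, and the other members of its group lay above -1. The 4 groups with 2 depleted members were the superoxide dismutases SOD1 and SOD2, the selenophosphate synthetases SEPHS1 and SEPHS2, the ferredoxins FDX1 and FDX1L and the pyrophosphatases PPA1 and PPA2. SOD1 and SOD2 act in the cytosol and in mitochondria, at -2.11 and -1.58, and the secreted SOD3 scored -0.00.

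**Figure D3:**
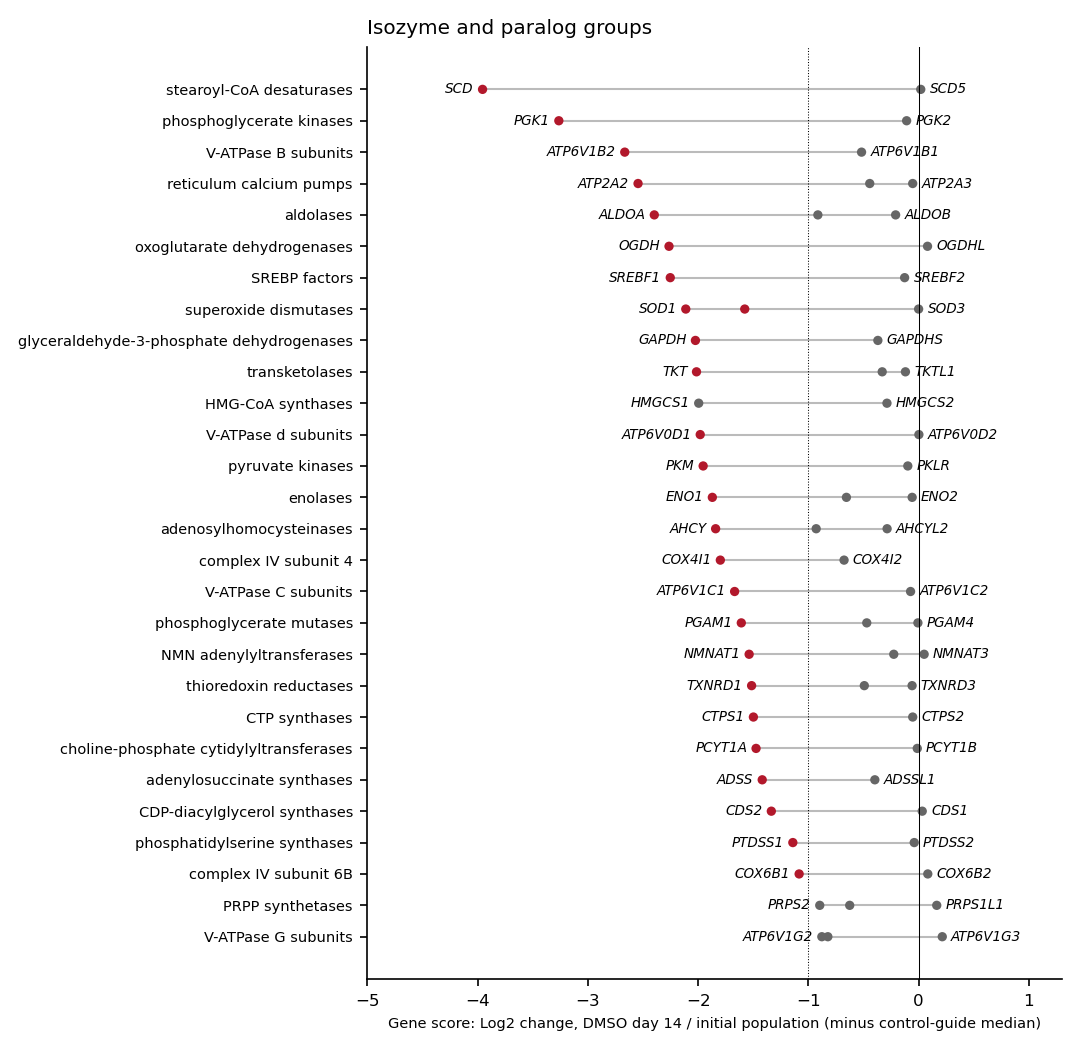
Scores of 28 of the 29 isozyme and paralog groups whose members differed by 1 or more. The horizontal axis is the log2 change minus the control-guide median, each point is a gene, red points are depleted genes, the grey line joins the members of a group, and the names are those of its lowest and highest gene. In most groups 1 red point lies apart from grey points near 0, as SCD at -3.96 and SCD5 at 0.02 do.

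Lipid synthesis was depleted at some branches and not at others. The mevalonate pathway makes the isoprene units for coenzyme Q, dolichol, protein prenylation and cholesterol. Of its 10 genes 5 were depleted, beside 6.33% of all genes, with a median of -1.45. The median was -0.74 with summed guide counts and -0.95 with the median over guides. MVD scored -3.16 ± 2.75 (SD, 8 guides), PMVK -2.41 ± 1.44 and MVK -1.90 ± 1.37. HMGCS1, an early enzyme of the route, scored -1.995 ± 2.89 and was not called: 7 of its guides fell to between -1.53 and -9.04, while the remaining 3 lay between 0.38 and 0.88. IDI1 and FDPS, the next enzymes, scored -0.53 and -0.49 and passed the guide test alone. GGPS1, which makes the geranylgeranyl group for prenylation, was depleted at -1.74 ± 1.66.

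In the branch from farnesyl diphosphate to cholesterol none of 13 genes was depleted, beside 6.33% of all genes, and their median was -0.11, close to that of all genes. FDFT1, which opens the branch, scored -0.20 ± 0.67, and DHCR7, near its end, scored -0.11 ± 0.35. CYP51A1, the lanosterol demethylase, was higher by the guide test at 0.32 ± 0.77. SQLE, the squalene epoxidase, scored 0.41 ± 0.51 and did not pass the test. The plot of lipid synthesis genes shows these values, with GGPS1, which stands on a side branch from FDPS, drawn before FDFT1. The difference between the lists was not tested.

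The SREBP axis, which switches on sterol and fatty acid genes when membrane sterol is low, was chosen for description after its scores had been seen. SCAP, the escort protein that both SREBPs need, scored -2.93 ± 2.405 (SD, 9 guides), and SREBF1, encoding SREBP1, -2.25 ± 1.55 (SD, 10 guides). SREBF2, encoding SREBP2, scored -0.13 ± 0.44 and was not called. INSIG1, which holds SCAP back in the endoplasmic reticulum, was higher by the guide test at 0.44 ± 0.54, with an adjusted p of 0.0403, and its relative INSIG2 scored -0.11 ± 0.58. INSIG1, an inhibitor of the axis, and its depleted members SCAP and SREBF1 lay on opposite sides of the control guides. Whether these scores are related was not tested. For INSIG1 the call was lost when guides with at least 30 counts, or all guides, were admitted.

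Fatty acid synthesis held 1 of the lowest genes of the screen. SCD, which puts the first double bond into saturated fatty acids, scored -3.96 ± 2.98 (SD, 6 guides). Its 6 guides had 230, 151, 831, 319, 493 and 3088 counts at day 0 and 0, 0, 178, 85, 133 and 1288 in DMSO, so all of them fell relative to the control guides. SCD lies on chromosome 10, from 100347233 to 100364826 on GRCh38. ACLY, which makes cytosolic acetyl-CoA from citrate, scored -1.43 ± 0.58. The enzymes between these steps did not follow. ACACA, the main acetyl-CoA carboxylase, scored -0.41 ± 0.77 and FASN, the fatty acid synthase, -0.07 ± 0.59, and neither was called. ELOVL1, which lengthens saturated fatty acyl chains, was higher by the guide test at 0.48 ± 0.70, although with a minimum of 300 counts it was not called, at 0.30.

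**Figure D4:**
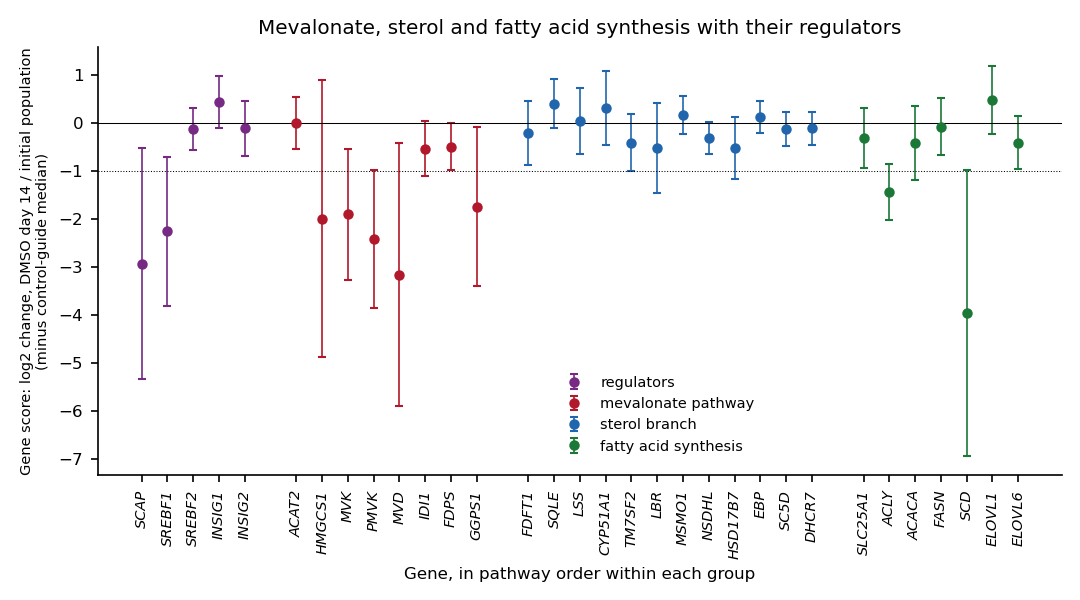
Scores of genes of lipid synthesis and of its regulators in pathway order. The vertical axis is the log2 change minus the control-guide median, points are gene scores, bars are the SD over guides of a gene, colours mark the groups, and the dotted line is -1. The mevalonate genes HMGCS1, MVK, PMVK and MVD lie between -1.90 and -3.16, and the sterol branch lies between -0.52 and 0.41.

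Phospholipid synthesis had 7 of 18 genes depleted, beside 6.33% of all genes, and a median of -0.70. CDIPT, which makes phosphatidylinositol, scored -3.65 ± 3.38 (SD, 10 guides), and its guides disagreed widely, since 3 of them went from 384, 253 and 243 counts to 0 while another 3 lay between -0.68 and -0.95. CRLS1 and PGS1, of the cardiolipin route, scored -1.48 and -1.22, and CDS2, which makes their precursor, -1.34, beside 0.03 for CDS1. PISD, the mitochondrial enzyme that makes phosphatidylethanolamine, scored -2.34 ± 2.61, and PCYT1A, rate-limiting for phosphatidylcholine, -1.48 ± 1.03. Among lipid kinases PIK3C3, which makes the phosphoinositide of early endosomes, and PI4KA were depleted at -1.83 ± 1.09 and -1.12 ± 0.66. PIKFYVE, the kinase that apilimod inhibits, scored -0.06 ± 0.43 in DMSO and was not called, and its sign changed with the scoring. Sphingolipid synthesis had no depleted gene among 17, beside 6.33% of all genes. Its lowest was SPTLC1, a subunit of the first enzyme, at -0.98 ± 0.71.

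Secretory glycosylation and the proton pump held further low genes. In N-glycan synthesis 10 of 29 genes were depleted, beside 6.33% of all genes. They were GMPPB, DHDDS and DOLK, 3 of 13 genes for dolichol and sugar donors, then ALG14, DPAGT1, ALG2, ALG1 and ALG11, and DDOST and DAD1 of the oligosaccharyltransferase. DDOST scored -3.03 ± 2.46 (SD, 9 guides) and GMPPB, which makes GDP-mannose, -2.99 ± 2.69 (SD, 10 guides). The enzymes that add the later sugars inside the endoplasmic reticulum, ALG3, ALG9, ALG12, ALG6, ALG8, ALG10 and ALG10B, lay between -0.89 and 0.12, and none was depleted. Among the 13 genes for the lipid-linked sugar chain, early and late steps together, 5 were depleted and 8 were lower by the guide test. The shares over all genes were 6.33% and 18.9%. GPI anchor synthesis had 1 depleted gene of 25, PIGQ, at -1.04 ± 0.89, a share below that of all genes. PIGQ was depleted in 2 of 10 other ways of scoring, only those that returned all 188 depleted calls.

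The V-ATPase, which acidifies lysosomes and endosomes, had 11 of 25 genes depleted, beside 6.33% of all genes, and a median of -0.88. ATP6V0C, the proteolipid of its rotor, scored -3.26 ± 1.69 (SD, 10 guides) with 10 of 10 guides lower, 2 of them going from 368 and 380 counts to 4 and 9. ATP6V1B2 and ATP6V1A, which form the catalytic head, scored -2.67 and -2.12. The accessory subunits ATP6AP1 and ATP6AP2 scored -1.82 and -1.61. Among subunits with more than 1 form, the broad form was depleted for ATP6V1C1, ATP6V0D1 and ATP6V1B2, at -1.67, -1.98 and -2.67. The tissue-restricted ATP6V1C2 and ATP6V0D2 scored -0.07 and 0.00 and were not called, while ATP6V1B1 scored -0.52 and was lower by the guide test. Of the E, G, a and e subunits no form was depleted. There ATP6V1E1, ATP6V1E2, ATP6V1G1 and ATP6V0A1, at -0.93, -0.57, -0.82 and -0.86, were lower by the guide test. ATP6V1G2, at -0.88, and ATP6V0E1, at -0.17, were not called. The differences between forms were not tested.

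Vitamin-derived cofactors and amino acids gave a few depleted genes per list. Coenzyme A synthesis lost its late enzymes PPCDC and COASY, at -2.54 ± 0.74 (SD, 10 guides) and -2.06 ± 1.16, while the 4 pantothenate kinases lay between -0.46 and -0.00. The PPCDC guides were even: their SD of 0.74 compares with a median SD of 1.09 over depleted genes, and all 10 lay between -1.53 and -4.17. NAMPT and NMNAT1, which make NAD from nicotinamide, scored -1.15 ± 0.76 and -1.54 ± 1.10. ASNS, which makes asparagine, scored -1.46 ± 0.98, and ALDH18A1, the first enzyme of proline synthesis, -2.07 ± 0.79. AHCY, which clears the product of methylation reactions, was depleted at -1.84 ± 1.10, and MAT2A, which makes the methyl donor, scored -0.86 ± 1.07 and was not called. MTAP, which recovers methionine from polyamine synthesis and lies at 9p21, scored 0.02 ± 0.49.

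Of the 30 redox genes 5 were depleted, or 16.7%, beside 6.33% of all genes. Besides SOD1 and SOD2, TXNRD1, the cytosolic thioredoxin reductase, scored -1.52 ± 0.62, and the selenophosphate synthetases SEPHS2 and SEPHS1, the first of which supplies selenium to selenoproteins, scored -1.48 and -1.22. GPX4, the selenoprotein that reduces lipid peroxides, scored -0.15 ± 0.70 and was not called. GCLC and SLC7A11, of glutathione synthesis and cystine import, scored -0.78 and -0.46 and passed the guide test alone. Among metal transporters SLC31A1, the copper importer, and SLC30A9, a zinc transporter, were depleted at -1.20 and -1.07. Of the amino acid transporters none of 10 was depleted, beside 6.33% of all genes, and the lowest was SLC38A2 at -0.86 ± 0.76.

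The upper end of the screen was short. NCEH1, a neutral cholesterol ester hydrolase, was the highest gene at 0.72 ± 0.41 (SD, 10 guides). Its 10 guides had 537, 495, 1196, 2153, 949, 866, 271, 267, 1781 and 868 counts at day 0 and 673, 734, 1913, 3596, 1783, 1750, 572, 589, 4171 and 3032 in DMSO, so all rose relative to the control guides, with an adjusted p of 4.33e-06 by the exact guide test. NCEH1 lies on chromosome 3, from 172630249 to 172711067 on GRCh38. SLC2A3 followed, with 9 of 10 guides above the control median and an adjusted p of 0.00023. Just below the limit of 0.5 were KCNQ3, a neuronal potassium channel, at 0.49 ± 0.26, ELOVL1, and ACBD7, an acyl-CoA-binding protein, at 0.48 ± 0.37, and all 3 passed the guide test. Of the others among the 10 highest, DERA, an aldolase of deoxyribose breakdown, was higher by the guide test at 0.39 ± 0.27, while the scavenger receptor MSR1 and the drug-metabolising CYP3A4 scored 0.40 ± 0.47 and 0.39 ± 0.54 and did not pass it. The number of enriched genes moved with the way a gene was scored, from 2 to 17. Rises were small beside the losses, with a highest score of 0.72 and a lowest of -4.50.

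**Figure D5:**
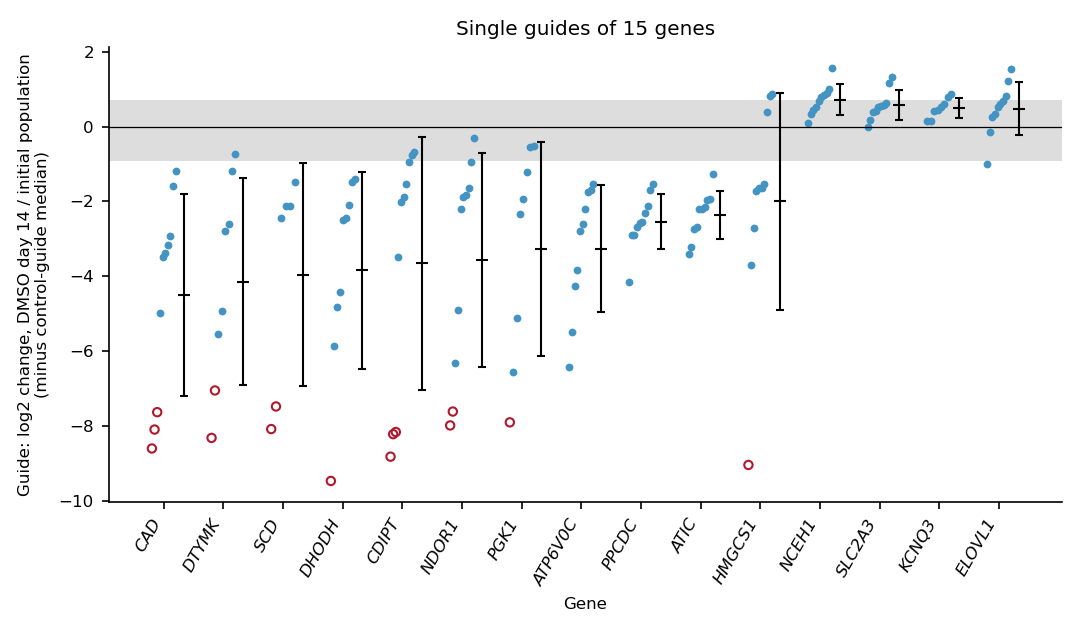
Single guides of the 8 lowest genes, of PPCDC, ATIC and HMGCS1 and of the 4 highest genes. The vertical axis is the log2 change of a guide minus the control-guide median, open red circles are guides at 0 counts in DMSO (placed by the pseudocount of 1), black bars are the mean and SD over guides, and the grey band is the central 95% of the control guides. The guides of CAD spread from -1.19 to -8.60, those of ATIC from -1.26 to -3.41, and those of NCEH1 from 0.09 to 1.57.

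Scores of genes with wide guide spread rest on few guides. Of the gene-targeting guides scored, 47 were at 0 counts in DMSO, 36 of them in depleted genes, and no control guide was (guides past the minimum of 100 counts at day 0). ALG14, part of the enzyme that adds the second sugar of the N-glycan precursor, scored -2.80 ± 3.45 (SD, 9 guides), yet its median guide changed by -0.90, above the limit for a call. SCD, CDIPT and SDHA had SDs of 2.98, 3.38 and 2.45, so their ranks among neighbours are not resolved. The order of the lowest genes also changed with the scoring. CAD and DTYMK, with 3 and 2 guides at 0, scored -2.23 and -2.26 by summed guide counts, beside -3.12 for DHODH and -2.50 for PPCDC. With a minimum of 300 counts CAD and DTYMK scored -3.67 and -2.97, beside -4.30 for DHODH. Single guides also carried the scores of 2 genes that were not called, HAO1, a peroxisomal oxidase, at -0.83 ± 2.87 and SLC2A12, a glucose transporter, at -0.63 ± 2.91, each with 1 guide at 0 counts in DMSO, and both scores turned positive without the lowest guide, at 0.16 and 0.28. Without each gene's lowest guide 156 genes were depleted, and by summed guide counts 150. In 10 other ways of scoring, 136 of the 188 genes were depleted wherever they were scored, and 52 lost the call in at least 1. Of the 10, 1 re-read the identical counts of the whole-series table, so it had to return the same calls. Setting guides under 3 counts to 3 also returned all 188. XYLT2 was depleted in only those 2 of the 10. With those 2 included, COX6B1 was depleted in 5, and FH and SRM, the spermidine synthase, in 6. Depleted genes and other genes began alike, at medians of 633.5 and 646 counts per guide, while control guides began at 1151.

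The apilimod library shares the initial population with DMSO, so its values are only set beside these. CAD scored -3.32 there and -4.50 in DMSO, ATP6V0C -4.19 and -3.26, and PPCDC -2.51 and -2.54. FASN scored -2.06 in apilimod and -0.07 in DMSO, and ELOVL1 -0.64 and 0.48. PIKFYVE itself scored -0.36 and -0.06. NCEH1 scored 0.79 and 0.72.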

How the data were processed

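The members and gene lists were chosen with earlier results of these data known. Guide abundances were measured in 3 libraries of MIA PaCa-2 genomic DNA, 1 per group. The deposited values are raw read counts per guide. The authors' methods and the submitters' processing notes name trimming with cutadapt 4.1, alignment with Bowtie2 2.4.5 and counting with MAGeCK 0.5.9.5. The notes also list bcl2fastq, with no version. Guide counts carry no molecular identifiers, so PCR copies are not independent cells. Per-sample files and the whole-series table differed in 0 counts.

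Following the study's filters, guides under 100 counts at day 0 were left out (1630 of 30197), as were genes with fewer than 6 guides (9 genes: CKMT1B, NUDT11, PLA2G7, SLN and 5 UGT1A genes). After a pseudocount of 1 and scaling to the library total, guide log2 changes were averaged per gene and set against the median of 487 control guides, 0.14 before subtraction. Genes were called depleted at -1 and enriched at 0.5 with 75% of guides on that side. The guide test was an exact two-sided rank-sum test against the control guides with mid-ranks for ties, adjusted by the Benjamini-Hochberg method over 2969 genes, at 0.05. It was tried on simulated counts in which all guides drifted as the control guides did. Drift was drawn there without regard to a guide's starting count, so the simulation cannot check the number of lower calls in these data. With 1 library per group no dispersion could be estimated, so no count model was run. Named genes were the 24 lowest and 10 highest scores, the members of the 38 lists, isozyme groups, the 6 genes of widest guide spread and 3 single genes (MTAP, MAT2A and PIKFYVE). Coordinates are RefSeq's on GRCh38, with 2961 genes matched by symbol. Guide sequences and cut sites were not used here. Some members counted in the lists are not reported here by name. Alternatives changed the count minimum, the pseudocount, the floor, the way guides are combined, the reference guides and the library. Another re-read the counts from the whole-series table, which were identical. Python 3.11.15, pandas 2.3.3, NumPy 2.4.6, SciPy 1.17.1 and matplotlib 3.10.9 were used.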

Additional observations from a re-analysis of the deposited data

How the results depend on the processing

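The count of depleted genes stayed within 1.5 times of 188 under all 10 other scorings, the lowest being 150 by summed guide counts. Among the 10, 1 re-read the whole-series table, whose counts were identical, so its calls could not differ. The count of enriched genes, 2 as reported, was 6 with the median over guides, 4 with summed guide counts, 10 without the lowest guide of each gene and 17 against the median guide of the library. The guide test called 61 genes higher without the lowest guide in place of 25. Against gene-targeting guides it called 207 lower and 46 higher in place of 560 and 25. The cause of these changes was not tested. List medians moved by less than the SD over their genes in all 380 comparisons. The whole-series table is counted in these comparisons and in those of the named genes, though it could not differ. For the named genes, 388 of 432 comparisons kept direction and calls, 5 lost a call (INSIG1 with lower minimums, ELOVL1 with a minimum of 300 counts, ALG14 at -0.90 with the median over guides and SLC2A3 at 0.45 with summed guide counts), 30 gained one (among them HMGCS1 at -2.15 with a minimum of 300 counts, MAT2A and SQLE) and 9 changed sign, all of genes called by neither rule. HAO1 was at 0.16 with summed guide counts and 0.16 without the lowest guide, SLC2A12 at 0.20 with the median over guides, 0.15 and 0.28, and PIKFYVE at 0.20, 0.069 and 0.034 under the same 3 scorings and 0.070 against the median guide. No paired analysis was possible because each group has 1 library. Depth limits the lowest values: a guide at 0 counts has only a bound, and control guides with fewer than 200 counts at day 0 had an SD of 0.62 against 0.30 from 1000 counts on. A single guide that changed by less than that spread could not be told from a control guide.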

Other observations

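The 43 depleted genes outside the lists include regulators and enzymes of single reactions. HSD17B10, a mitochondrial dehydrogenase that is also a subunit of the RNase that cuts mitochondrial tRNAs, scored -2.63, and MYC, the growth-promoting transcription factor, -2.48. NAT10, an RNA acetyltransferase, scored -2.29, and NUDT21, a subunit of the factor that cuts mRNA 3′ ends, -2.15. Within the lists, the ribosome-linked ABC proteins ABCF1 and ABCE1 were depleted at -2.55 and -1.64, while ABCF2 and ABCF3 scored -0.21 and -0.19. DOHH, which completes the hypusine of a translation factor, scored -1.67, and SRM, the spermidine synthase that supplies the hypusine side chain, -1.16. RFK, which makes FMN from riboflavin, scored -1.60. GFER and AIFM1, of protein import into the mitochondrial intermembrane space, scored -1.76 and -1.42. The transcription factors NRF1, which drives nuclear genes of mitochondria, and MTF1, which responds to metals, scored -1.56 and -1.55. GGTLC2, at -1.74, belongs to a family of near-identical copies, and the cut sites of its guides were not analysed here, so its score is uncertain.

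Scores were not even across chromosomes. The median was -0.38 over 145 genes of chromosome 16 and -0.38 over 71 genes of chromosome 22, and it was -0.32 on chromosome 17, against -0.04 on chromosome 7 and -0.06 on chromosome 8. On chromosome 16, 22 genes or 15.2% were depleted, CDIPT, DHODH and ATP6V0C among them, beside 6.33% of all genes. These medians were examined after the scores had been seen, and what sets them apart was not tested.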
